A study of Mus musculus with 16 samples.

Results

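The 9 genes described here mark homeostatic microglia, the resident macrophages of the brain in their resting state: Tmem119, P2ry12, P2ry13, Cx3cr1, Csf1r, Siglech, Olfml3, Gpr34 and Aif1. They were found by gene name among the 55335 genes of the deposited count table, and all 9 were among the 16475 genes with enough reads to be tested. RNA was sequenced from the whole hippocampus of 16 female mice aged 10 months, 4 in each of 4 groups. All 16 mice carried an osmotic pump that infused the brain ventricles for 28 days. WT-D mice (C57BL/6J x 129S1) received the vehicle, 0.8% DMSO in artificial cerebrospinal fluid. 3xTg-D mice (a B6;129 strain with the Psen1tm1Mpm knock-in and the transgenes APPSwe and tauP301L), a model of Alzheimer's disease, received the same vehicle. WT-S and 3xTg-S mice were infused with 80 µM CAY10566, an inhibitor of stearoyl-CoA desaturase (SCD), an enzyme that makes monounsaturated fatty acids, in that vehicle. The human APP and tau transgenes of 3xTg mice are driven by a Thy1.2 element, which is active in neurons, and the presenilin mutation is a knock-in, so the transgenes are not aimed at microglia, while the knock-in is present in every cell. Because each sample is a whole hippocampus, fewer microglia and less RNA per microglial cell cannot be told apart.

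Microglia survey the tissue with motile processes and depend on signals from neurons and other glia. Csf1r is the receptor for the survival factors CSF1 and IL-34. Cx3cr1 is the receptor for fractalkine, a chemokine displayed by neurons. P2ry12 and P2ry13 are receptors for ADP, through which microglia sense damaged cells, and Gpr34 is a receptor for lysophosphatidylserine. Tmem119 is a membrane protein used to tell microglia from other macrophages, Siglech is a sialic acid-binding lectin, Olfml3 is a secreted matrix protein, and Aif1 encodes IBA1, the calcium-binding protein commonly stained to show microglia. Several of these genes are known to fall when microglia become activated.

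P2ry13 and Olfml3 carry most of the differences below, and P2ry12 is the gene next to P2ry13 on the same strand. Their promoters are therefore shown, from 250 bases before to 50 after the RefSeq start on GRCm38.p6, all on the minus strand. P2ry13 lies at chr3:59210833-59211132, P2ry12 at chr3:59262936-59263235 and Olfml3 at chr3:103737952-103738251. Capitals mark GAGGAA and GGAAGT, read on both strands, which overlap each other in the motif of the microglial transcription factor PU.1.
P2ry13: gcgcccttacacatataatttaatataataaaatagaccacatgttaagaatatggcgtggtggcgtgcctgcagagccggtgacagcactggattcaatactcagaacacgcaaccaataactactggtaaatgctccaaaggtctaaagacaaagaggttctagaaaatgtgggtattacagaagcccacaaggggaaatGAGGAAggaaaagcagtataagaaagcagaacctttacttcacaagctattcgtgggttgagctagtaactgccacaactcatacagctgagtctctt
P2ry12: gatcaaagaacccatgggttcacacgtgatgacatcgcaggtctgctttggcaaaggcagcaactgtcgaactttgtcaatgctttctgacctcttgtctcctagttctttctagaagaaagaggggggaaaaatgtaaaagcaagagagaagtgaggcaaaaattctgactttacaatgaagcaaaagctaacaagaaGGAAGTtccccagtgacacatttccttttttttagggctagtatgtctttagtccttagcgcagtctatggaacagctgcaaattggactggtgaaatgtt
Olfml3: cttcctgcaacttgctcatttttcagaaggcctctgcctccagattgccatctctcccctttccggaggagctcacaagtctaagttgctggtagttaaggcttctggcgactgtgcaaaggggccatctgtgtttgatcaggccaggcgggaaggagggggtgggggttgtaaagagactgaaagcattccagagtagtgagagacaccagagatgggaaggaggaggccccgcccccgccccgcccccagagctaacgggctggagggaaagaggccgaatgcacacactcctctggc
The P2ry13 promoter held GAGGAA once, at position -48 relative to its start site, and the P2ry12 promoter held GGAAGT once. The Olfml3 promoter held neither. Promoters of 6 members were counted. Tmem119 and Gpr34 had no promoter entry, and Csf1r was left out of the count. The shares below therefore do not describe all members, and the motifs of Csf1r were not tested. GAGGAA was held by 3 of these 6 (P2ry13, Siglech and Aif1), against 28.1% of 32544 mouse promoters of the same length. GGAAGT was present in 2 of the 6 (P2ry12 and Siglech), against 23.7%.

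Reads on genes numbered 15413385 to 23590149 in a mouse. Thy1, whose regulatory element drives both transgenes, was measured as CPM, the read count scaled to a fixed library total. It ranged from 517 to 625 CPM in the 8 WT mice and from 1566 to 2141 CPM in the 8 3xTg mice, so the genotypes did not overlap and every library matched the genotype of its label. The treatment was not checked by a gene. Each member had between 63 and 3584 reads in each mouse. Mice 3xTg-D 2 and WT-D 1 stood apart for microglial genes. The summed CPM of the 9 members was 552 for 3xTg-D 2 and 436 for WT-D 1, and lay between 259.7 and 382 in the other 14 mice. WT-D 1 also had 11.7 CPM over 10 blood leukocyte markers, against 0.458 to 2.89 CPM in the other 15, led by the monocyte receptor Ccr2 at 6.46 CPM. Astrocyte markers summed to 3934 CPM in 3xTg-D 2, above the range of 2153 to 2951 CPM in the rest. The part of leukocytes and astrocytes in the results for these mice was not tested.

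All 9 members were detected in every mouse, at levels that spanned an order of magnitude when divided by exon length. The levels in this paragraph are CPM per kilobase of annotated exon, as mean ± SD over the 16 mice. P2ry12 was highest at 28.4 ± 5.47 (SD, n = 16). Csf1r followed at 16.6 ± 3.88 and Cx3cr1 at 13.5 ± 2.76. Each of these steps held within all 16 mice. Cx3cr1 and Gpr34 (13.4 ± 3.18) were not ordered beyond their spread, since Cx3cr1 was the higher of the pair in 9 of 16 mice. Tmem119 was at 8.85 ± 3.02 and P2ry13 at 7.05 ± 1.74. Siglech was at 6.35 ± 1.77, below P2ry13 in 12 of 16 mice. Aif1 (4.17 ± 2.25) and Olfml3 (2.55 ± 0.97) were lowest, and Aif1 was above Olfml3 in all 16. The annotated exons of Olfml3 cover 6161 bases, far more than those of the similarly abundant P2ry13 at 2528, which lowers its value per kilobase. P2ry12 and P2ry13 lie inside Med12l, and Gpr34 inside Cask, on the opposite strand, while Csf1r shares 873 exon bases with Hmgxb3 and Cx3cr1 shares 78 with Gm33858, also on the opposite strand. The strand setting of the counting is not given in the sources used here, so reads of these overlapping genes may be mixed.

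The members varied together from mouse to mouse. Over the 16 mice, the 36 pairs of members had Pearson correlations of 0.464 to 0.937 in log2 CPM, with a median of 0.795. With each group centred on its own mean, so that differences between groups played no part, the median was 0.83. Without 3xTg-D 2 and WT-D 1 it was 0.714, and the lowest pair fell to 0.18. These correlations share the libraries and their depth. Among the 10 genes whose pattern was most like the mean of the standardised members were Rgs10 (r = 0.964), a regulator of G protein signalling, Npc2 (0.951), Plek (0.945), Selplg (0.944), Lair1 (0.935), Cd53 (0.929), Gfap (0.927), Itgb5 (0.917) and Cmtm6 (0.915), all over 16 mice. Gfap is the intermediate filament of astrocytes. Its CPM was 1118 for 3xTg-D 2 and 665 for WT-D 1, and 378 to 618 CPM in the other 14 mice. Without those mice its correlation with the members was 0.812.

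**Figure D1:**
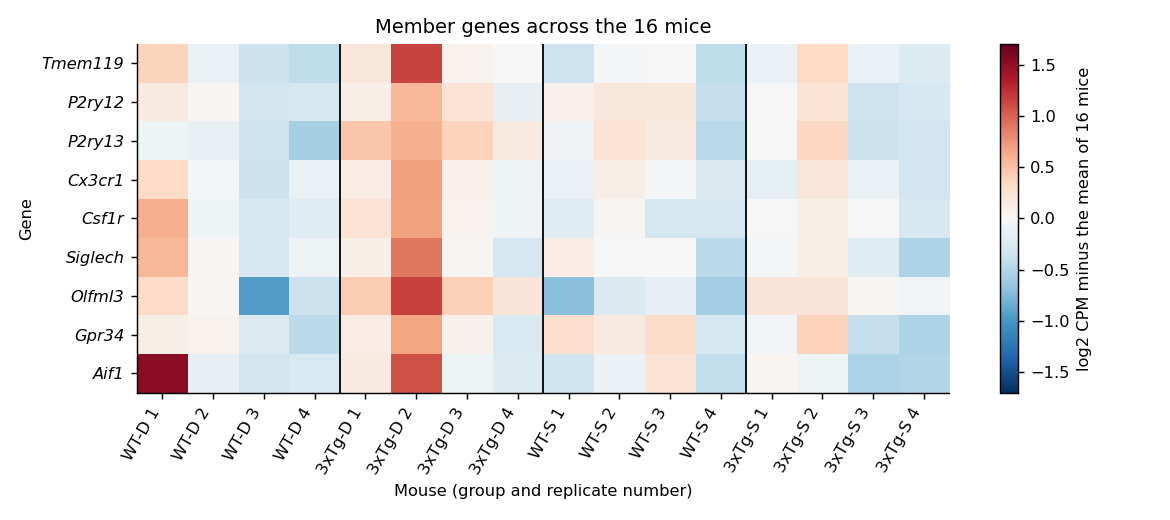
Heat map of log2 CPM minus the 16-mouse mean for the 9 members (rows) in each mouse (columns, named by group and replicate number); red is higher and blue lower. 3xTg-D 2 is red for all 9 genes, WT-D 1 is darkest for Aif1, and P2ry13 is red in all 4 3xTg-D mice.

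The comparison of WT-D with 3xTg-D asked how the members differed between the strains under the vehicle. The transgenes and the knock-in cannot be told apart here from other differences between the strains. P2ry13 was the member called as a differentially expressed gene (DEG, unadjusted p of 0.01 or less in edgeR's quasi-likelihood test). The 4 WT-D mice had 16.4, 15.8, 13.5 and 11.7 CPM, and the 4 3xTg-D mice had 24.0, 26.5, 22.7 and 19.1 CPM. Every 3xTg-D mouse was above every WT-D mouse. P2ry13 was 1.61-fold higher in 3xTg-D, with a log2 fold change of 0.68 ± 0.13 (SE, n = 4 per group) and an adjusted p of 0.0233 by the Benjamini-Hochberg method over all genes tested. Of all tested genes, 4.91% were called in this comparison, an adjusted p of 0.05 or less was reached by 1.85%, and 8.17% had groups that did not overlap. P2ry13 stayed called without any 1 of the 8 mice, with log2 fold changes of 0.59 to 0.76.

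**Figure D2:**
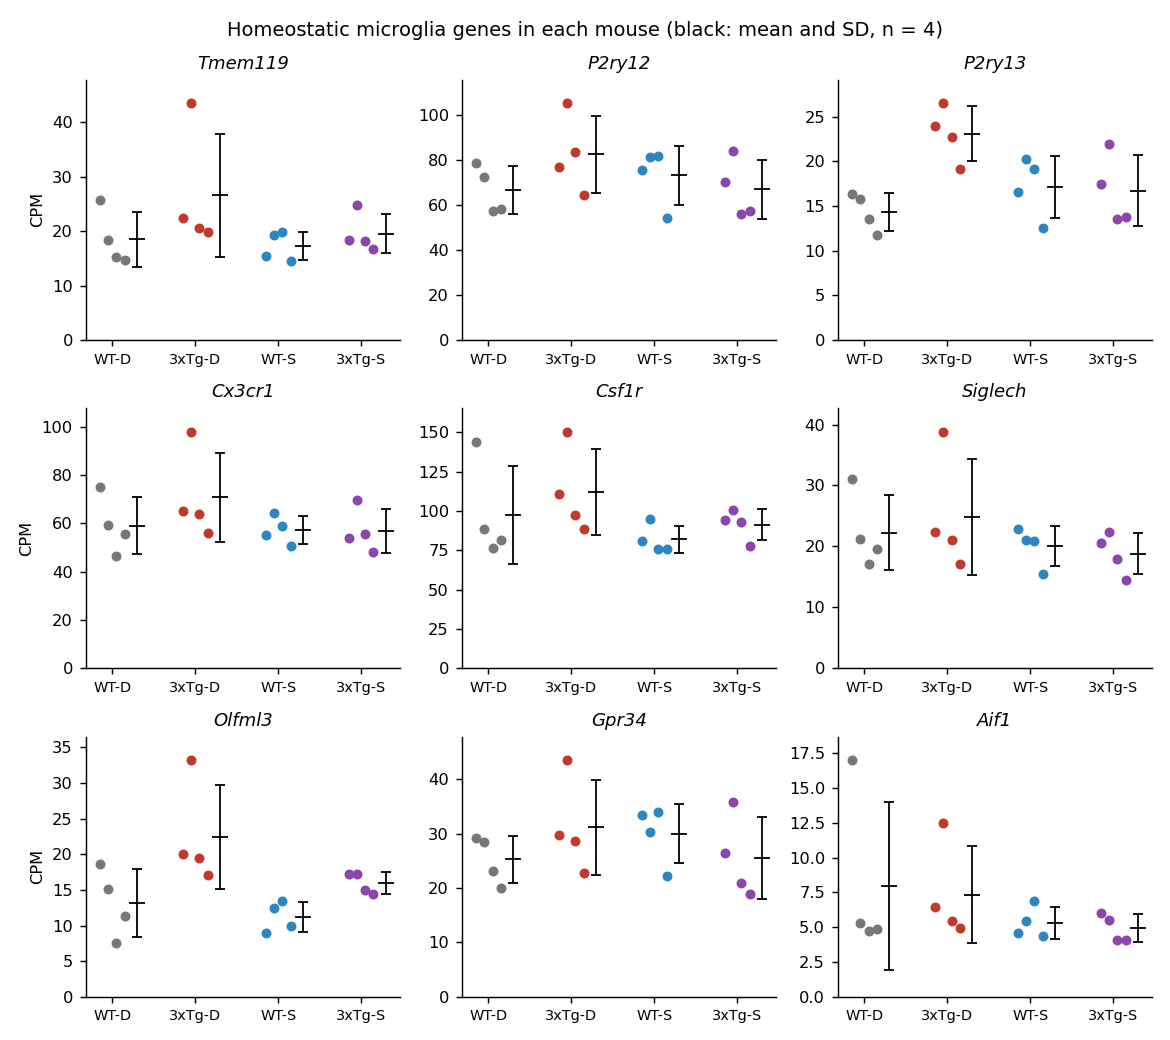
CPM of each member in every mouse (coloured points, replicates 1 to 4 from left to right) with the mean and SD of each group (black, n = 4); each vertical axis starts at 0. P2ry13 in 3xTg-D lies between 19.1 and 26.5 CPM, above all 4 WT-D mice, while 3xTg-D 2 is the highest mouse of its group for every gene.

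The other 8 members were not called between WT-D and 3xTg-D. Olfml3 had the largest fold of the 9. WT-D mice had 18.6, 15.1, 7.61 and 11.4 CPM, and 3xTg-D mice had 20.002, 33.2, 19.5 and 17.1 CPM. The groups overlapped through WT-D 1, which lay above the lowest 3xTg-D mouse, and the log2 fold change was 0.77 ± 0.27 (adjusted p = 0.262). For Tmem119, WT-D mice had 25.7, 18.3, 15.3 and 14.7 CPM and 3xTg-D mice 22.5, 43.5, 20.5 and 19.8 CPM, a log2 fold change of 0.53 ± 0.27 (adjusted p = 0.461). Here too WT-D 1 was the WT-D mouse that reached into the other group. P2ry12, the neighbour of P2ry13, stood at 78.7, 72.5, 57.2 and 58.3 CPM among WT-D mice and at 76.7, 105, 83.4 and 64.5 CPM among 3xTg-D mice. Its groups overlapped, and its log2 fold change was 0.31 ± 0.15 (adjusted p = 0.442). Values for Cx3cr1, Csf1r, Siglech and Gpr34 lay between 0.16 and 0.31, and that for Aif1 was -0.11. The median over the 9 members was 0.31, against -4.3e-05 over all tested genes, and 8 of the 9 were above 0, against 50.0% of all tested genes. Other lists had values in the same direction, namely 6 of 6 astrocyte markers (median 0.21, none called), 5 of 6 oligodendrocyte markers (median 0.21, 3 called) and 13 of 15 disease-associated microglia genes (median 0.09, none called higher). Of the 22 further homeostatic microglia genes, 14 were above 0 (median 0.10, none called). Their part in the members' values was not tested. With the share of reads outside genes as a covariate, 4 of the 9 were above 0, and P2ry13 was still called.

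Both mice that stood apart belong to this comparison. Aif1 was at 16.98 CPM in WT-D 1, against 5.28, 4.70 and 4.85 CPM in the other WT-D mice, and at 12.5 CPM in 3xTg-D 2, against 6.48, 5.47 and 4.96 CPM in the other 3xTg-D mice. Without these 2 mice, 4 of the 9 members were called: P2ry13 (log2 fold change 0.68, adjusted p = 0.0138), Olfml3 (0.73, adjusted p = 0.0824), Tmem119 (0.38, adjusted p = 0.0905) and Csf1r (0.26, adjusted p = 0.194). This compares 3 mice with 3, and 5.0% of all tested genes were called in that fit. Without WT-D 1 alone, P2ry13 and Olfml3 were called. Leaving out the pair was chosen after the values were seen.

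The remaining receptors spanned wide and overlapping ranges in the 4 groups. For Cx3cr1, the fractalkine receptor, WT-D mice lay between 46.4 and 74.9 CPM and 3xTg-D mice between 56.2 and 97.9. The inhibitor-treated mice lay between 50.6 and 64.2 CPM (WT-S) and between 48.1 and 69.7 (3xTg-S). For Csf1r, the receptor of colony-stimulating factor 1, WT-D mice lay between 76.7 and 144 CPM and 3xTg-D mice between 88.5 and 150.4. With the inhibitor, the bounds were 76.1 and 94.7 CPM for WT-S, and 77.7 and 101 for 3xTg-S. For the lectin Siglech, the bounds were 17.1 and 31.1 CPM for WT-D, 17.1 and 38.8 for 3xTg-D, 15.4 and 22.9 for WT-S, and 14.5 and 22.3 for 3xTg-S. In these 3 genes WT-D 1 and 3xTg-D 2 each lay above every inhibitor-treated mouse. Gpr34, a lipid receptor, lay between 22.7 and 43.5 CPM in 3xTg-D mice, and between 18.9 and 35.8 in 3xTg-S mice. P2ry12 lay between 54.0 and 81.5 CPM in WT-S mice, and between 55.7 and 84.0 in 3xTg-S mice. Tmem119 lay between 14.6 and 19.8 CPM in WT-S mice, and between 16.8 and 24.8 in 3xTg-S mice.

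The comparison of 3xTg-D vs 3xTg-S asked what the inhibitor did in 3xTg mice. None of the 9 members was called in the unpaired test, although the values of all 9 were lower in 3xTg-S. DEGs made up 0.904% of all tested genes, and none passed an adjusted p of 0.05. In edgeR, 2 of the 9 had an unadjusted p under 0.05, P2ry13 and Olfml3, and P2ry13 came closest. It had 17.5, 21.99, 13.5 and 13.8 CPM in 3xTg-S, against the 19.1 to 26.5 CPM of 3xTg-D. Mouse 3xTg-S 2 lay within the 3xTg-D range and the other 3 below it. The log2 fold change was -0.46 ± 0.16 (adjusted p = 0.722), and it was called in DESeq2's likelihood ratio test. Olfml3 had 17.3, 17.2, 15.03 and 14.4 CPM in 3xTg-S, so that 3xTg-D 4 (17.1 CPM) lay just below the highest pair and the other 3xTg-D mice above them, with a log2 fold change of -0.50 ± 0.19 (adjusted p = 0.722). The other 7 members ranged from -0.59 (Aif1) to -0.29 (Csf1r and Gpr34), with adjusted p-values of 0.722 to 0.743. The CPM of the groups overlapped for all 9 members, and did not overlap for 3.16% of all tested genes. The count of called members depended on the treatment of replicate numbers. With the replicate number of the labels as a block, 8 members were called. Whether those numbers pair these mice is not settled, as described in the closing section.

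The median log2 fold change of the members in 3xTg-D vs 3xTg-S was -0.40, against 0.0069 over all tested genes. Without 3xTg-D 2, all 9 values were still below 0, between -0.40 and -0.09, and none was called. With the share of reads outside genes as a covariate, all 9 lay between -0.40 and -0.08, and none was called. That share was 8.79 to 11.3% in 3xTg-D (median 10.5%) and 7.82 to 15.1% in 3xTg-S (median 12.4%). Its part in the members' values was not tested. Without 3xTg-D 4, P2ry13 and Olfml3 were called, and without 3xTg-S 2, P2ry13 was called. Other lists were also below 0 in this comparison. All 22 further homeostatic microglia genes were below 0 (median -0.35, none called), as were all 15 tested disease-associated microglia genes (median -0.26, 1 called), 6 of 6 astrocyte markers (median -0.23, none called) and 6 of 6 oligodendrocyte markers (median -0.36, Cnp and Mag called). Neuron markers had a median of 0.04. Their part in the members' values was not tested.

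**Figure D3:**
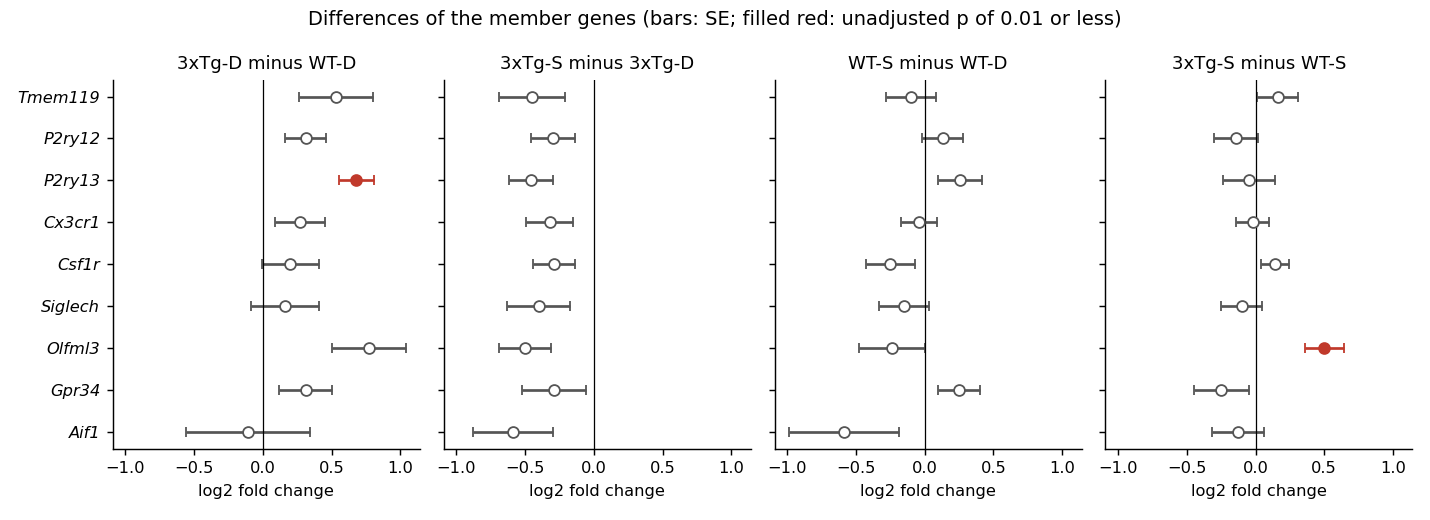
Log2 fold change (horizontal axis, each panel one difference between groups) with its SE for the 9 members (rows), from edgeR with 4 mice per group; filled red points have an unadjusted p of 0.01 or less. All 9 points lie left of 0 for 3xTg-S minus 3xTg-D, P2ry13 is red for 3xTg-D minus WT-D, and Olfml3 is red for 3xTg-S minus WT-S.

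In WT mice no member was called for the inhibitor (WT-D vs WT-S), and 0.188% of all tested genes were. For Gpr34, WT-D mice had 29.3, 28.5, 23.2 and 20.1 CPM and WT-S mice 33.5, 30.4, 34.0 and 22.2 CPM (log2 fold change 0.25 ± 0.15, adjusted p = 1.0). P2ry13 had 16.6, 20.3, 19.2 and 12.5 CPM in WT-S (log2 fold change 0.26 ± 0.16, adjusted p = 1.0). In both genes, 3 of the WT-S mice were above all WT-D mice and WT-S 4 lay low among them. Of the rest, P2ry12 was above 0 and 6 members were below, down to -0.59 ± 0.40 for Aif1, whose WT-D mean held the high value of WT-D 1. No member was below an unadjusted p of 0.05 in edgeR, and DESeq2 called 0 of 9. The members' median was -0.10, and -7.8e-05 over all tested genes.

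The effect of the inhibitor in 3xTg mice was set against its effect in WT mice by the interaction of genotype and treatment over all 16 mice. P2ry13 was called, with an interaction of -0.72 ± 0.24 on the log2 scale (adjusted p = 0.788), that is, 0.26 in WT and -0.46 in 3xTg. DEGs made up 0.595% of all tested genes, and none passed an adjusted p of 0.05. The call depended on single mice. With 1 mouse left out at a time, it held in 5 of 16 fits, those without WT-D 1, WT-D 2, 3xTg-D 4, WT-S 4 or 3xTg-S 2, while its value stayed between -0.90 and -0.63 in all 16. It also missed the threshold without WT-D 1 and 3xTg-D 2 together (-0.73, adjusted p = 0.974). Gpr34 (-0.54 ± 0.30, adjusted p = 0.788) and P2ry12 (-0.43 ± 0.24, adjusted p = 0.788) came next. Both were called with the replicate number of the labels as a block in edgeR (adjusted p = 0.24 and 0.26). The closing section describes how far those numbers pair the mice. Csf1r and Aif1 were at -0.04 and 0.00.

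With the inhibitor present in both genotypes (WT-S vs 3xTg-S), Olfml3 was the member that was called. WT-S mice had 9.01, 12.5, 13.5 and 9.88 CPM and 3xTg-S mice 17.3, 17.2, 15.03 and 14.4 CPM, with no overlap. Olfml3 was 1.41-fold higher in 3xTg-S, at a log2 fold change of 0.50 ± 0.14 (adjusted p = 0.154). In this comparison, 4.26% of all tested genes were called and 1.4% passed an adjusted p of 0.05. The Olfml3 call was lost without WT-S 1, WT-S 4, 3xTg-S 1 or 3xTg-S 2, while its log2 fold change stayed between 0.40 and 0.60. P2ry13, called under vehicle, was at -0.05 ± 0.19 here. Between WT-D and 3xTg-S, where 5.69% of all tested genes were called and 1.58% passed an adjusted p of 0.05, no member was called, none had an unadjusted p under 0.05 in edgeR, and DESeq2 called 0 of 9. P2ry13 was at 0.20 ± 0.17 (adjusted p = 0.689) and Olfml3 at 0.26 ± 0.23 (adjusted p = 0.702), and the members' median was -0.01. The comparisons with WT-D or with 3xTg-D share those mice.

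Since the members followed one another across mice, each was also read relative to the 22 further homeostatic genes, as summed CPM in the same mouse. This reading was chosen after the values were seen. Among the 22 were Selplg, Fcrls and the C1q genes, but also Ptprc and Itgam, which blood leukocytes express too. Their part in the sum of WT-D 1, the mouse with the highest blood leukocyte markers, was not tested. The 22-gene sum was 1219 for WT-D 1 and 1322 for 3xTg-D 2, and between 609 and 864 CPM in the other 14 mice. Sparc, which endothelial cells also express, was a large part of this sum. On average it gave 209 of 858 CPM in WT-D and 203 of 933 in 3xTg-D. In WT-S it gave 241 of 785 CPM, and in 3xTg-S 173 of 744. The part of Sparc in the ratios was not tested beyond the mice named below. Its part in the fits with this sum as covariate was not tested either. Relative to it, Olfml3 separated the genotypes under both infusions. It amounted to 1.52, 1.87, 1.1 and 1.59% of the sum in WT-D and to 2.34, 2.51, 2.44 and 2.27% in 3xTg-D. With the inhibitor it amounted to 1.12, 1.46, 1.69 and 1.46% in WT-S and to 2.25, 1.99, 2.05 and 2.36% in 3xTg-S. No WT mouse reached the lowest 3xTg mouse. P2ry13 separated WT-D (1.35 to 1.96%) from 3xTg-D (2.0 to 2.84%), but not WT-S (1.86 to 2.40%) from 3xTg-S (1.84 to 2.54%). Tmem119 separated WT-D (2.04 to 2.26%) from 3xTg-D (2.57 to 3.29%), and Csf1r separated WT-S (9.52 to 11.3%) from 3xTg-S (11.6 to 12.8%). The other members overlapped in both. Sparc gave 214 of 689 CPM in WT-D 3 and 233 of 1322 in 3xTg-D 2, whose P2ry13 ratios were 1.96 and 2.0%. It gave 267 of 856 CPM in WT-S 2 and 191 of 864 in 3xTg-S 2, whose Csf1r ratios were 11.1 and 11.6%. Without Sparc in the sum, the order of both pairs of mice is reversed. Thus, with Sparc in the sum, 3 of 9 members did not overlap between WT-D and 3xTg-D, and 2 of 9 between WT-S and 3xTg-S. Over all tested genes the same ratio did not overlap in 2.15% and 4.1%.

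**Figure D4:**
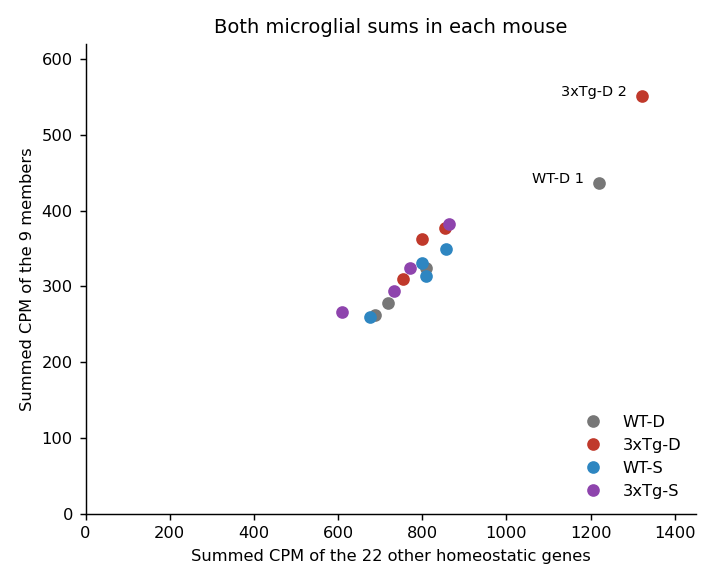
Summed CPM of the 9 members (vertical axis) against the summed CPM of the 22 further homeostatic genes (horizontal axis), 1 point per mouse, coloured by group. The 2 sums rise together, with WT-D 1 and 3xTg-D 2 apart at the upper right, at 436 and 552 CPM for the members.

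**Figure D5:**
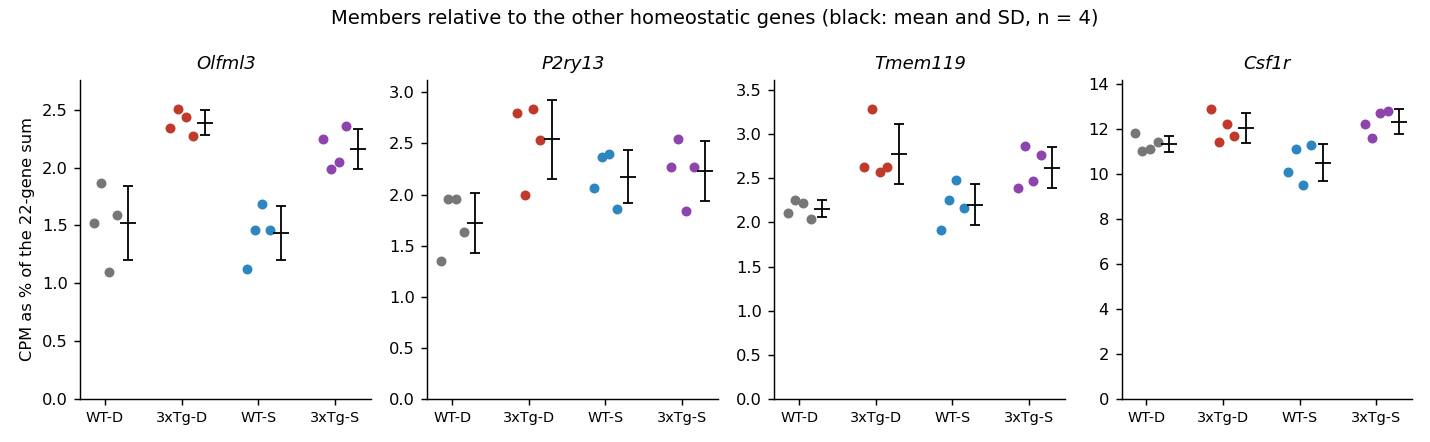
CPM of Olfml3, P2ry13, Tmem119 and Csf1r as a percentage of the 22-gene sum in each mouse (coloured points) with mean and SD (black, n = 4 per group); the vertical axes start at 0. Olfml3 is at 1.1 to 1.87% in the 8 WT mice and at 1.99 to 2.51% in the 8 3xTg mice.

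The same question was put to edgeR with the log2 of the 22-gene sum as a covariate. Between WT-D and 3xTg-D, 3 members were called: P2ry13 (log2 fold change 0.63, adjusted p = 0.00313), Olfml3 (0.63, adjusted p = 0.0201) and Tmem119 (0.35, adjusted p = 0.0479), while 5.9% of all tested genes were called. Between WT-S and 3xTg-S, Olfml3 was called (0.55, adjusted p = 0.0432), against 5.21% of all tested genes. In 3xTg-D vs 3xTg-S no member was called, and the members' values, which had been -0.59 to -0.29, lay between -0.27 and 0.08. P2ry13 kept the lowest of them, at -0.27 (adjusted p = 1.0).

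The partners of the members showed no called gene. Of 8 ligands and partners, none was called in any comparison, and 0 had an unadjusted p under 0.05 in edgeR or were called by DESeq2. Cx3cl1, the ligand of Cx3cr1, was at 280.5 to 400.4 CPM over the 16 mice, and the Csf1r ligands Csf1 and Il34 were at 18.9 to 35.9 and 23.1 to 32.9 CPM. Tyrobp, the signalling adaptor of many microglial receptors, had its highest values in the same mice as the members, 22.7 CPM for 3xTg-D 2 and the next for WT-D 1, against 6.84 to 12.6 CPM in the others. Of 6 transcription factors that shape microglia, none was called either, with 0 under an unadjusted p of 0.05 in edgeR and 0 called by DESeq2. Spi1, which encodes PU.1, was at 1.51 to 5.03 CPM and Irf8 at 3.24 to 13.6 CPM, both highest in WT-D 1.

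Among the 22 further homeostatic genes, Sparc was called between WT-S and 3xTg-S. Sparc, a matrix protein that endothelial cells also express, had 263, 267, 237 and 198 CPM in WT-S and 173, 191, 182 and 148 CPM in 3xTg-S (-0.49 ± 0.11, adjusted p = 0.0729). It was also called between WT-D and 3xTg-S (-0.29 ± 0.08, adjusted p = 0.135) and in the interaction (-0.43 ± 0.14, adjusted p = 0.788).

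Of 16 genes that rise in disease-associated microglia, 15 were tested. Gpnmb, a glycoprotein of phagocytes, was lower in 3xTg than in WT mice: -0.70 ± 0.16 for 3xTg-D against WT-D (adjusted p = 0.0653), -0.82 ± 0.14 for 3xTg-S against WT-S (adjusted p = 0.0186) and -0.98 ± 0.17 for 3xTg-S against WT-D (adjusted p = 0.0185). Cst7, a cysteine protease inhibitor, was higher in 3xTg-S than in WT-S (2.25 ± 0.49, adjusted p = 0.0554), from 0.0518 to 0.217 CPM in WT-S to 0.378 to 0.811 CPM in 3xTg-S. These levels are near the detection floor, since Cst7 had between 1 and 58 reads per mouse over the 16 mice. Clec7a, a receptor for fungal glucans, was lower in 3xTg-S than in 3xTg-D (-1.34 ± 0.42, adjusted p = 0.722), where 3xTg-D 2 had 5.62 CPM and the other 3xTg-D mice 1.64 to 1.81 CPM. Cd9 was lower in 3xTg-S than in WT-D (-0.53 ± 0.15, adjusted p = 0.133). Markers of border macrophages, which share Csf1r, Cx3cr1 and Aif1 with microglia, summed to 11.9 to 25.8 CPM per mouse over 8 genes, and the Mrc1 level of 3xTg-D was below that of WT-D (-0.66 ± 0.19, adjusted p = 0.157).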

How the data were processed

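The authors trimmed single-end reads with Trimmomatic 0.35, aligned them to GRCm38 with STAR 2.5.1b (versions from the submitters' processing notes) and Gencode M23 annotation, and deposited raw read counts per gene, not normalized. Libraries carried molecular identifiers, but removal of duplicates is not given in the sources used here. The treatment labels name the Cayman inhibitor, while a protocol text common to all samples names ab142089. The members and the other gene lists were chosen with earlier results of these data known.

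In R 4.3.3, edgeR 4.0.16 kept 16475 genes by filterByExpr (minimum count 10, minimum total 15) and scaled libraries by TMM. Pairs of groups were compared by its two-sided quasi-likelihood test. DEGs were called at p of 0.01 or less, with Benjamini-Hochberg adjusted p-values beside them. Differences are always the second group named minus the first. Log2 CPM used a prior count of 2. All 9 members are described. Of the other lists, each called gene is named (at most 4 per list and comparison), and the 10 genes most correlated with the members were found; some results of single genes from these lists are not reported here. Marker lists are also given as sums. Promoters and exon lengths came from RefSeq (GRCm38.p6) and from annotation of the same build. The fits were tested on simulated counts, except those with a microglial covariate or with mice left out.

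Alternatives were DESeq2 1.42.0, median-ratio size factors, other filters (none, or at least 10 counts in every mouse), all 16 mice in one fit, the replicate number as a block, the share of reads outside genes as covariate, an adjusted threshold of 0.05, and each mouse left out. Replicate numbers 1 to 4 come from the labels. Numbers were taken to pair mice where all 4 same-numbered pairs correlated above 0.1 in their deviations from the group means. This held for WT-D and WT-S (r = 0.114, 0.205, 0.209 and 0.34), and in the other comparisons 2 or 3 of the 4 pairs were above it. Replicates differed by more than counting noise (chi-square per degree of freedom 3.8 to 45.5). The labels do not say how animals were housed or handled in batches, and p-values measure the spread between these mice.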

Additional observations from a re-analysis of the deposited data

Results flagged for a closer look

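Within groups of 4 mice, 88 sets of values were examined on a log scale for a mouse far from the other 3. The test used marks about 1 in 20 groups by chance. It marked 4. Tmem119 in 3xTg-D 2 (43.55 CPM) and Aif1 in WT-D 1 (16.98 CPM) lay far above the other mice of their groups. The summed blood leukocyte markers did so in 3xTg-D 2 (2.89 CPM), and the summed choroid plexus markers in WT-S 1 (290.4 CPM). The higher leukocyte sum of WT-D 1 (11.7 CPM) was not marked on that scale, where the other WT-D mice were more spread. Choroid plexus markers were also high in WT-D 4 (726 CPM), against 27.2 to 60.9 CPM in the other 14 mice. The 9 members summed to 278 CPM in WT-D 4 and 314 CPM in WT-S 1.

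The interaction of genotype and treatment was called for P2ry13 (-0.72 on the log2 scale) and for Sparc (-0.43), each by the edgeR interaction test at p of 0.01 or less. Of all tested genes, 0.595% were called in that test. Neither had an adjusted p below 0.788.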

How the results depend on the processing

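The call of P2ry13 between WT-D and 3xTg-D held under every alternative run, with adjusted p-values of 0.000115 to 0.0505 over the planned ones and of 0.0164 to 0.0804 with 1 mouse left out. No member was called in WT-D vs WT-S or WT-D vs 3xTg-S under any of them. The other counts of called members moved. Between WT-D and 3xTg-D, 2 members were called with no filter, with all 16 mice in one fit and with the replicate block, 3 with the microglial covariate, 4 without WT-D 1 and 3xTg-D 2, and 1 to 2 with 1 mouse left out. In 3xTg-D vs 3xTg-S, 1 was called by DESeq2, 2 with no filter, 8 with the replicate block (all but Aif1) and 0 to 2 with 1 mouse left out. In WT-S vs 3xTg-S, 0 were called at the adjusted threshold or with all 16 mice in one fit, 2 with the share of reads outside genes as covariate (Olfml3 and Tmem119), and 0 to 1 with 1 mouse left out. In the interaction, 0 were called at the adjusted threshold or without WT-D 1 and 3xTg-D 2, and 0 to 1 with 1 mouse left out. With the replicate block, 3 were called there (Gpr34, P2ry12 and P2ry13). The cause of these changes was not tested. In 3xTg-D vs 3xTg-S the adjusted p-values with the block were 0.0351 for P2ry13, 0.0448 for Cx3cr1 and 0.0604 to 0.105 for the other 6. By the cut-off used, the replicate numbers pair the mice in WT-D vs WT-S, where the block changed no call. In 3xTg-D vs 3xTg-S the same-numbered mice correlated by r = 0.0158, 0.391, 0.0646 and 0.381 (mean 0.213, against -0.0656 for mice of different numbers), 2 pairs above the cut-off, and 4 of 8 mice correlated best with their own number, so whether the numbers pair these mice is not settled.

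No value that changed sign was called, before or after. With the share of reads outside genes as covariate, WT-D vs 3xTg-D gave -0.079 for Csf1r, -0.011 for Cx3cr1, -0.0077 for Gpr34 and -0.23 for Siglech. WT-S vs 3xTg-S gave 0.10 for P2ry13, 0.076 for Cx3cr1 and 0.011 for Siglech, WT-D vs WT-S gave -0.013 for P2ry12, WT-D vs 3xTg-S gave 0.042 for Gpr34 and 0.028 for P2ry12, and the interaction gave 0.16 for Csf1r and 0.068 for Siglech. With the microglial covariate, 3xTg-D vs 3xTg-S gave 0.083 for Gpr34, 0.047 for Siglech and 0.031 for Tmem119. WT-D vs 3xTg-S gave 0.11 for Csf1r and P2ry12, 0.13 for Gpr34 and 0.079 for Cx3cr1, and WT-S vs 3xTg-S gave 0.074 for P2ry13, 0.052 for Cx3cr1 and 0.0037 for Siglech. WT-D vs WT-S gave 0.045 for Cx3cr1 and 0.033 for Tmem119, WT-D vs 3xTg-D gave -0.0034 for Siglech, and the interaction gave 0.13 for Csf1r and 0.013 for Siglech. With all 16 mice in one fit, WT-D vs 3xTg-S gave 0.014 for Gpr34 and 0.0043 for P2ry12. The interaction of Aif1 became -0.0026 in DESeq2, -0.0078 with 10 counts in every mouse, -0.0045 with median-ratio size factors, -0.028 with no filter, -0.11 with the replicate block and -0.32 without WT-D 1 and 3xTg-D 2. Its value between WT-D and 3xTg-D became 0.018 with the block and 0.18 without those mice.

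With 1 mouse left out at a time, Aif1 ranged from -0.51 to 0.58 in WT-D vs 3xTg-D, -0.78 to 0.11 in WT-D vs WT-S, -0.23 to 0.022 in WT-S vs 3xTg-S and -0.69 to 0.38 in the interaction. Csf1r ranged from -0.22 to 0.13 in WT-D vs 3xTg-S and -0.29 to 0.13 in the interaction. Cx3cr1 ranged from -0.18 to 0.068 in WT-D vs 3xTg-S, -0.15 to 0.094 in WT-D vs WT-S and -0.14 to 0.049 in WT-S vs 3xTg-S. In WT-D vs 3xTg-S, Gpr34 ranged from -0.22 to 0.12, P2ry12 from -0.14 to 0.081 and Tmem119 from -0.073 to 0.27. P2ry13 ranged from -0.22 to 0.038 in WT-S vs 3xTg-S, and Tmem119 from -0.20 to 0.11 in WT-D vs WT-S. Siglech ranged from -0.15 to 0.37 in WT-D vs 3xTg-D, -0.26 to 0.058 in WT-D vs WT-S, -0.21 to 0.0047 in WT-S vs 3xTg-S and -0.46 to 0.041 in the interaction.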

Other observations

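Other cell types of the hippocampus varied beside the members. Neuron markers summed to 5288 CPM in 3xTg-D 2, the lowest of the 16 mice, against 5929 to 6617 CPM in the others. Mbp and Mobp, which encode myelin proteins, were higher in 3xTg-D than in WT-D, by log2 fold changes of 0.49 ± 0.09 and 0.39 ± 0.08, with adjusted p-values of 0.0214 and 0.0275 in edgeR's test. The red cell genes Hba-a2, Hbb-bt and Alas2 were higher in 3xTg-S than in WT-S, by 1.28 ± 0.34, 1.75 ± 0.53 and 1.41 ± 0.43, and erythroid markers summed to 127 and 119 CPM in 3xTg-S 1 and 3xTg-S 2 and to 15.7 to 75.5 CPM in the other 14 mice. Those 2 mice held the highest Olfml3 of 3xTg-S, at 17.3 and 17.2 CPM. The 3 red cell genes were also higher in 3xTg-S than in WT-D, by 1.44 ± 0.43, 1.98 ± 0.55 and 1.52 ± 0.40 for Hba-a2, Hbb-bt and Alas2. The myelin genes Mag and Mog were lower in 3xTg-S than in WT-D, by -0.42 ± 0.10 and -0.51 ± 0.13 on the log2 scale. The 6 endothelial markers summed to 148 to 242 CPM per mouse. Among them, Itm2a was called lower in 3xTg mice under vehicle (-0.29 ± 0.09 against WT-D) and under the inhibitor (-0.49 ± 0.12 against WT-S). Itm2a (-0.40 ± 0.10) and Ly6a (-0.45 ± 0.14) were also called in 3xTg-S when WT-D was the reference. The choroid plexus gene Ttr ranged from 1.82 to 638 CPM in WT-D, and was called lower in 3xTg-D (-4.89 ± 1.49) and in 3xTg-S (-5.88 ± 1.60) than there. Apart from Mbp and Mobp, the differences of single genes in this paragraph had adjusted p-values of 0.0721 to 0.21 in edgeR's test.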
